A study of Mus musculus with 45 samples.

Results

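The genes described here encode the partners of Lin54 in the MuvB core and in the DREAM complex, namely Lin9, Lin37, Lin52 and Rbbp4 of the core, E2f4, E2f5, Rbl1 and Rbl2 of DREAM, and Mybl2 and Foxm1, which bind the core later in the cell cycle. They were taken by gene symbol, and all 10 were present among the 33924 genes listed in each of 2 RNA-seq expression tables. All 10 varied between samples and had a mean value above the filter of 3 described below, so none was lost. The 24 RNA-seq samples came from mouse ES cells of the D3 line that carry a deletion at the long noncoding RNA gene 5430416N02Rik. In the PG line (ΔPG) the promoter and gene body were replaced by a PGK-driven puromycin cassette, and in the G line (ΔG) the gene body alone was replaced by a GFP and puromycin cassette. Each line was measured as heterozygous (het) and homozygous (hom) cells, in the ES state and after retinoic acid (RA), with 3 samples in each of 8 groups. The controls therefore also carry the deletion on 1 allele. The study names RA and DMSO as the treatments before RNA-seq, and the sample labels do not say whether the ES samples received DMSO. Which clones of a genotype were sequenced, and how many, is not given in the sources used here, so effects of clone and of genotype cannot be told apart. The study's methods call the samples of a group biological replicates and do not say how they were separated, so p-values measure the spread between these samples, whatever its source.

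MuvB is a small core of 5 proteins (Lin9, Lin37, Lin52, Lin54 and Rbbp4) that takes on different partners through the cell cycle. With E2f4 or E2f5, a Dp protein and a pocket protein (Rbl1, also called p107, or Rbl2, also called p130) it forms DREAM, which represses cell cycle genes in quiescent cells and in early G1. From S phase on, the core binds Mybl2 (B-Myb) and then Foxm1 and activates genes of G2 and mitosis. ES cells have a short G1 phase and high Mybl2, and RA makes them leave the pluripotent state.

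Values are regularized log (rlog) values, that is normalised read counts per gene on a log2 scale, pulled towards the gene's mean where counts are low. The ΔPG and the ΔG samples were transformed in separate tables, so levels are compared only within a table. The term called is used for genes that passed both of 2 limits, an adjusted p under 0.1 (limma, Benjamini-Hochberg over all varying genes of the table) and a log2 difference over 0.5 in either direction. Differences are given with their SE, and group means with their SD (n = 3). With 3 samples against 3, an exact two-sided permutation test of a single gene cannot go below p = 0.1, which is the value it gives wherever the 2 groups do not overlap.

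The deleted gene followed its labels. In ΔPG ES, 5430416N02Rik was at 4.62, 4.58 and 4.59 in the het samples and at 2.23, 2.21 and 2.46 in the hom samples, and the hom minus het difference was -2.30 there, -1.81 in ΔPG RA, -2.79 in ΔG ES and -2.75 in ΔG RA. With RA, 10 of 10 stem cell marker genes fell in every genotype, and 6 of 6 endoderm genes rose. Of 7 RA response genes, 6 rose in each genotype and 1 was called lower, by 2.61 to 3.55. In a bulk sample, fewer cells of a type and less RNA per cell cannot be told apart, so every RA difference below can hold both. The summed level of the endoderm list went from 5.56 to 6.07 in ES to 8.48 to 9.36 in RA on the log2 scale, and that of a fibroblast list, of which Thy1 and Postn averaged under 3, from 5.19 to 5.81 to 8.65 to 9.65. All genes of these lists varied between samples. The part of such cells in the member genes' differences was not tested. The ΔPG ES libraries stood apart by base composition. Over 11904 genes, the deviation of a sample from the mean of each gene correlated with exonic GC content at 0.33 to 0.34 in the 3 ES het libraries and at -0.29 to -0.24 in the 3 ES hom libraries, against -0.09 to -0.02 in the ΔPG RA libraries and -0.14 to 0.16 in the ΔG libraries. The median of 13 mitochondrial genes was at most 10.12 in the ΔPG ES het libraries and at least 11.66 in the other ΔPG libraries. The members' differences that use ΔPG ES are therefore also given after the GC trend was removed.

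Per length of exon, Mybl2 was the most abundant member in ES cells. On the rlog scale less the log2 of exonic length in kb, its mean level was 8.64 in ΔPG ES het and 8.26 in ΔG ES het, followed by E2f4 (7.84 and 7.34) and Rbbp4 (7.19 and 7.22). Mybl2 lay above E2f4 without overlap in both groups, while E2f4 and Rbbp4 overlapped in ΔG. Rbl2 was the least abundant in both, at 2.28 and 2.27, below Rbl1 at 3.97 and 4.34. In RA het cells, Mybl2 was no longer the first, at 6.49 in ΔPG and 6.19 in ΔG, below both E2f4 and Rbbp4 with no overlap, and Rbl2 remained last. The core subunits Lin9, Lin37 and Lin52 lay between 3.59 and 5.11 in these 4 groups.

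**Figure D1:**
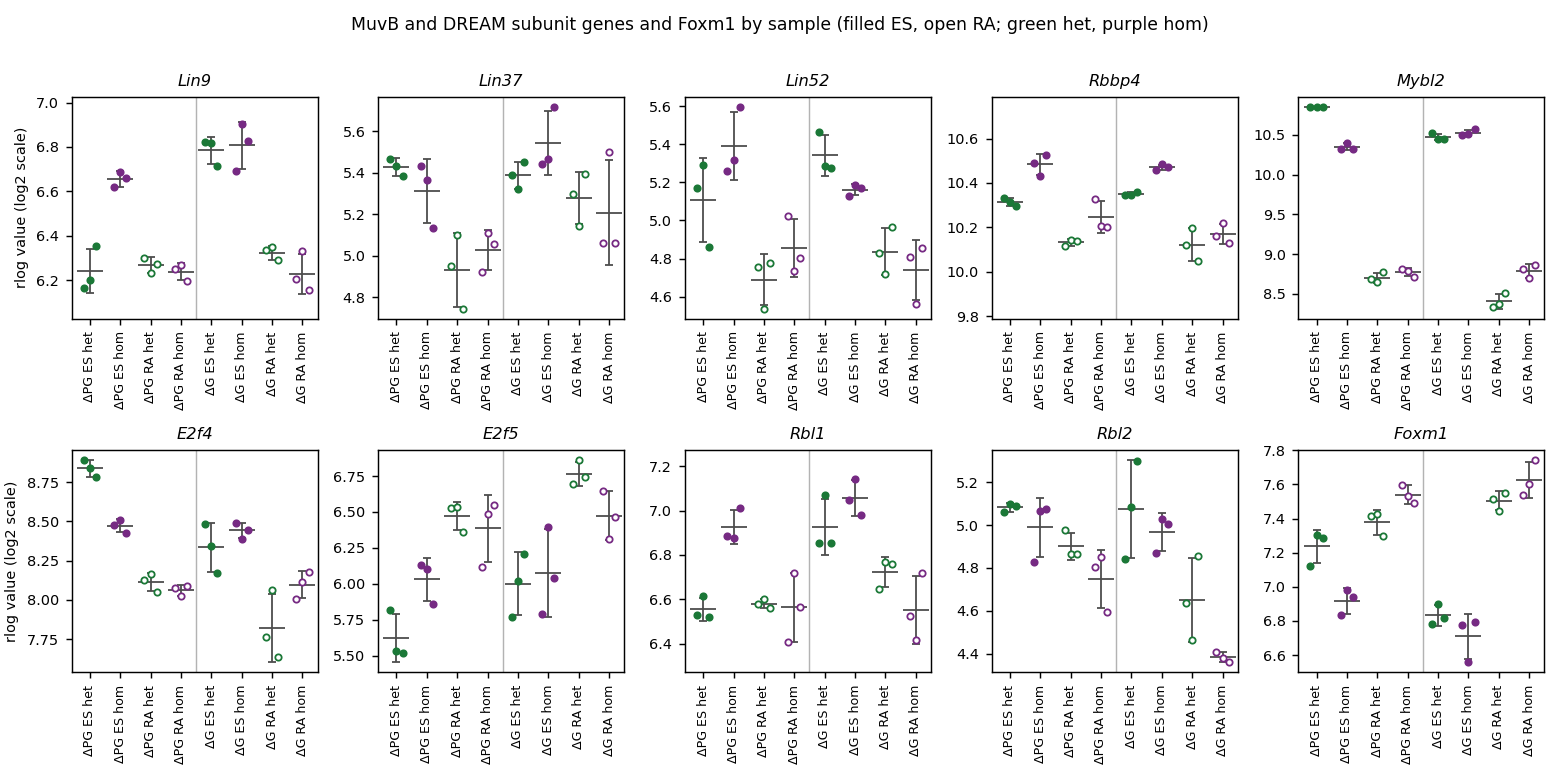
rlog value on the log2 scale (vertical axis, a separate range in each panel) of the 10 genes in each of 24 samples, with 8 groups of 3 along the horizontal axis and the ΔPG and ΔG tables divided by a line; bars are the mean ± SD. Mybl2 is above 10.3 in all ES samples and below 8.9 in all RA samples, and Foxm1 is lower in ES than in RA in the ΔG samples.

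The first comparison asked how the genes changed when the cells were treated with RA, within each genotype of each line (ΔPG het, ΔPG hom, ΔG het and ΔG hom). Mybl2, the B-Myb activator, fell strongly in all 4 genotypes, and Foxm1, the mitotic activator, rose in 3 of them. E2f4 and E2f5, the repressor E2F proteins of DREAM, moved in opposite directions. The differences of the core subunits lay between -0.58 and 0.028, and those of both pocket proteins between -0.58 and 0.026. Of the 10 genes, 3 were called in ΔPG het (1 higher, 2 lower), 3 in ΔPG hom (1 higher, 2 lower), 5 in ΔG het (2 higher, 3 lower) and 5 in ΔG hom (1 higher, 4 lower). Among all genes tested, 31.6%, 27.8%, 29.5% and 29.2% were called in the same comparisons. The shares higher were 18.0%, 16.5%, 17.7% and 17.0%, and the shares lower 13.6%, 11.3%, 11.7% and 12.1%. Counts of 3 and of 5 are both near these shares for a set of 10 genes. Several of the calls behind the counts of 5 lay close to the limit on size, as given below. The median difference of the 10 was -0.18, -0.32, -0.33 and -0.38, against 0.01, 0.01, 0.04 and 0.02 over all genes.

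Mybl2 (chr2:162880423-162910424, plus strand in NCBI37/mm9, protein coding) was at 10.85, 10.85 and 10.85 in ΔPG ES het and at 8.68, 8.65 and 8.78 in ΔPG RA het. In ΔPG hom it was at 10.33, 10.40 and 10.33 in ES and at 8.82, 8.78 and 8.72 in RA. Every RA sample was lower than every ES sample of its line. The fall was 2.15 ± 0.033 in het and 1.58 ± 0.040 in hom cells, a 4.43-fold and 2.98-fold reduction (limma adjusted p = 7.45e-09 and 1.05e-10). In ΔG het, Mybl2 was at 10.52, 10.45 and 10.45 in ES and at 8.34, 8.37 and 8.51 in RA. In ΔG hom it was at 10.50, 10.51 and 10.57 in ES and at 8.82, 8.70 and 8.86 in RA. These falls were 2.07 ± 0.052 and 1.73 ± 0.047, 4.19-fold and 3.32-fold (adjusted p = 1.79e-12 and 2.00e-15). Among all genes tested, 164 and 295 genes had a lower difference than Mybl2 in ΔPG het and hom, and 205 and 307 in ΔG het and hom. Removal of the GC trend left differences of -1.94 and -1.68 in ΔPG.

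Genes of the cell cycle often carry E2F sites or a CHR, the element that Lin54 binds, close to their start. The 250 bases before the start were read from a table of RefSeq promoters (GRCm38.p6), in which 6 of the 10 genes were matched (Mybl2, Rbl1, Rbbp4, Lin37, Rbl2 and Lin52). The promoters of Lin9, E2f4, E2f5 and Foxm1 were not analysed here. The 6 promoters were searched on both strands for 2 sets of letters found in E2F sites, GCGGGA and GCGCGAA, and for the CHR letters TTTGAA. Of these sequences, 3 are shown, that of the gene with the largest fall and those of a core subunit and a pocket protein with smaller differences, with coordinates in GRCm38, in the direction of the gene, and with the letters found or their reverse complement in capitals.
Mybl2 (chr2:163054385-163054634, plus strand): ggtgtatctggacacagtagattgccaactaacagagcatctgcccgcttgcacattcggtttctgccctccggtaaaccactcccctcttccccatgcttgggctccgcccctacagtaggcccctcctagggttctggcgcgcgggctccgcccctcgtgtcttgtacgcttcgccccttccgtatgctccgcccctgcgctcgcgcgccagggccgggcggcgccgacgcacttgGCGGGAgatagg
Lin52 (chr12:84451258-84451507, plus strand): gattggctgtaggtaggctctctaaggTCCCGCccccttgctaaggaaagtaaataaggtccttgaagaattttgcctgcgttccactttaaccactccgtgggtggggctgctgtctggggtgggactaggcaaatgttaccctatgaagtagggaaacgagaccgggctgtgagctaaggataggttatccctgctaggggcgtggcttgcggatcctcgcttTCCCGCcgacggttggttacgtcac
Rbl1 (chr2:157204535-157204784, minus strand): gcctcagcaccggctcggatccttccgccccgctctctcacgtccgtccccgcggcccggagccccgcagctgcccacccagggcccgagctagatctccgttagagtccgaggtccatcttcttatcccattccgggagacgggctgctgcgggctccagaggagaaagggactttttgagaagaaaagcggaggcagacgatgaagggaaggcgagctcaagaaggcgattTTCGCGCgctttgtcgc
GCGGGA was found in Mybl2, Lin37 and Lin52, where it covered 12 to 7, 16 to 11 and 25 to 20 bases before the start, and Lin52 held a further copy at 223 to 218. GCGCGAA was found in Rbl1 at 17 to 11 and in Rbbp4 at 12 to 6 bases before the start. TTTGAA was found in Lin37 and Rbl2. Of 32851 promoters of the same length, 16.9% held GCGGGA, 1.28% held GCGCGAA and 16% held TTTGAA. The letters describe these windows only, and Mybl2, Lin37 and Lin52, which share GCGGGA, differed in their RA response.

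Foxm1 (chr6:128312985-128325911, plus strand), a forkhead factor that drives mitotic genes, went the other way. In ΔG het it was at 6.78, 6.90 and 6.82 in ES and at 7.52, 7.44 and 7.55 in RA. In ΔG hom it was at 6.78, 6.56 and 6.79 in ES and at 7.54, 7.60 and 7.74 in RA. The groups did not overlap in either genotype, and the rises were 0.67 ± 0.073 and 0.92 ± 0.089 (adjusted p = 3.45e-06 and 8.53e-08). In ΔPG hom it was at 6.83, 6.98 and 6.94 in ES and at 7.60, 7.53 and 7.49 in RA, a rise of 0.62 ± 0.067 (adjusted p = 1.31e-05). In ΔPG het, the ES values of 7.12, 7.30 and 7.29 overlapped the RA values of 7.41, 7.43 and 7.30, and the difference of 0.14 ± 0.063 was not called (adjusted p = 0.101). After the GC correction, the ΔPG differences were 0.32 in het and 0.55 in hom cells.

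**Figure D2:**
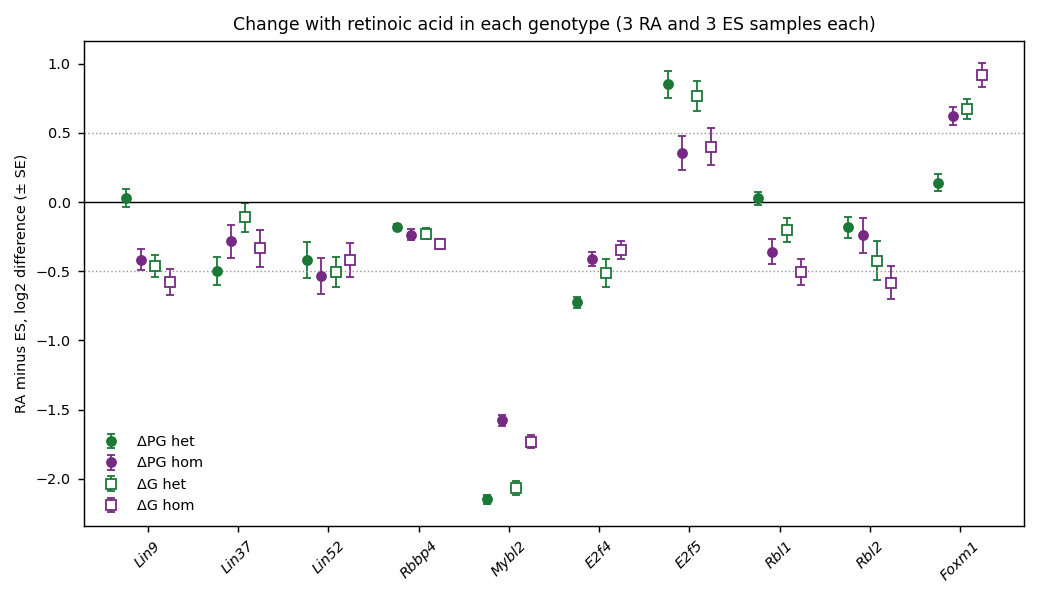
RA minus ES difference on the log2 scale (vertical axis) of the 10 genes (horizontal axis) in each genotype, 3 samples against 3; points are the limma estimate, bars the SE, and dotted lines the limit of 0.5. Mybl2 lies between -2.15 and -1.58, Foxm1 and E2f5 lie above 0 in all 4 genotypes, and the other genes lie between -0.73 and 0.03.

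E2f4 (chr8:107821563-107829269, plus strand), the main repressor E2F of DREAM, fell in the het cells of both lines. In ΔPG het it was at 8.89, 8.84 and 8.78 in ES and at 8.12, 8.16 and 8.05 in RA, a fall of 0.73 ± 0.042 (adjusted p = 4.27e-06). In ΔG het it was at 8.49, 8.34 and 8.17 in ES and at 7.77, 8.06 and 7.64 in RA, a fall of 0.51 ± 0.10 (adjusted p = 0.000912). The ES samples stayed above the RA samples in both, but the ΔG call was lost without ES het replicate 1 (-0.44), RA het replicate 1 (-0.49) or RA het replicate 3 (-0.42). In hom cells the differences were -0.41 ± 0.049 in ΔPG and -0.34 ± 0.064 in ΔG, past the limit on adjusted p (2.95e-05 and 0.000192) and not past that on size. E2f5 (chr3:14578671-14606308, plus strand), its close relative, rose in the same het cells. In ΔPG het it was at 5.81, 5.53 and 5.52 in ES and at 6.53, 6.53 and 6.36 in RA, a rise of 0.85 ± 0.097 (adjusted p = 0.00019). In ΔG het it was at 5.77, 6.02 and 6.21 in ES and at 6.69, 6.86 and 6.74 in RA, a rise of 0.76 ± 0.11 (adjusted p = 5.06e-05). The hom differences of E2f5 were 0.35 ± 0.12 and 0.40 ± 0.13, where ES and RA samples overlapped. Without ΔG ES hom replicate 2 the ΔG hom difference was 0.56 and was called.

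The pocket protein genes of DREAM were called only in ΔG hom, where both fell. In ΔPG hom, Rbl1 passed the limit on adjusted p and not that on size, with no overlap of ES and RA samples. Rbl1 (chr2:156971629-157030270, minus strand) was at 7.05, 7.14 and 6.98 in ΔG ES hom and at 6.53, 6.42 and 6.72 in ΔG RA hom, a fall of 0.50 ± 0.095 (adjusted p = 0.000219). This call was lost without ES hom replicate 2 (-0.46), RA hom replicate 1 (-0.49) or RA hom replicate 2 (-0.44). The other Rbl1 differences were 0.026 ± 0.048 in ΔPG het, -0.36 ± 0.090 in ΔPG hom and -0.20 ± 0.086 in ΔG het, none of them called, and the value in ΔPG het turned to -0.30 with the GC trend removed, to -0.0064 after quantile normalization and to -0.13 with a trend in gene length removed. Rbl2 (chr8:93593956-93647743, plus strand), whose protein is the pocket protein most tied to quiescence, was at 4.87, 5.03 and 5.01 in ΔG ES hom and at 4.41, 4.38 and 4.36 in ΔG RA hom, a fall of 0.58 ± 0.12 (adjusted p = 0.000485). In ΔG het it was at 4.84, 5.08 and 5.30 in ES and at 4.64, 4.46 and 4.85 in RA, which overlapped by 1 sample, and the difference of -0.42 ± 0.14 was not called. Without ES het replicate 1 or RA het replicate 3 it was -0.54 or -0.52 and was called. In ΔPG the Rbl2 differences were -0.18 ± 0.075 in het and -0.24 ± 0.13 in hom cells.

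Of the MuvB core, Lin52 and Lin9 were called in some genotypes and Lin37 and Rbbp4 in none. Lin52 (chr12:85792458-85872483, plus strand), the subunit whose phosphorylation favors DREAM, fell by 0.54 ± 0.13 in ΔPG hom and by 0.51 ± 0.11 in ΔG het (adjusted p = 0.00553 and 0.00172), and was -0.42 ± 0.13 in ΔPG het and -0.42 ± 0.12 in ΔG hom. ES and RA samples of Lin52 did not overlap in any of the 4 genotypes. Its calls were close to the limit. In ΔPG hom the call was lost without ES hom replicate 3 (-0.43) or RA hom replicate 2 (-0.48), in ΔG het without ES het replicate 1 (-0.44) or RA het replicate 2 (-0.45), and in ΔPG het a call was gained without ES het replicate 3 (-0.54). Lin9 (chr1:182571498-182620816, plus strand), a scaffold of the core, fell by 0.58 ± 0.095 in ΔG hom (adjusted p = 5.32e-05), from 6.69, 6.90 and 6.83 to 6.20, 6.33 and 6.15. It was -0.42 ± 0.074 in ΔPG hom and -0.46 ± 0.079 in ΔG het, with no overlap. In ΔPG het the value of 0.028 ± 0.065 became -0.37 with the GC trend removed, -0.057 after quantile normalization and -0.0088 without ES het replicate 1.

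Lin37 (chr7:31340460-31344857, minus strand), which the repressor form of the core needs, was -0.50 ± 0.10 in ΔPG het, just inside the limit, and between -0.34 and -0.11 in the other genotypes. It was called in ΔPG het without ES het replicate 3, RA het replicate 1 or RA het replicate 2 (-0.58 to -0.51), and in ΔG het it turned to 0.023 with a trend in gene length removed. Rbbp4 (chr4:128984344-129012614, minus strand), a histone-binding protein also found in other chromatin complexes, had small and closely replicated differences of -0.18 ± 0.019, -0.24 ± 0.041, -0.23 ± 0.042 and -0.30 ± 0.034 in ΔPG het, ΔPG hom, ΔG het and ΔG hom, and after quantile normalization the first 3 turned to 0.099, 0.034 and 0.024. Lin54 itself (chr5:100870937-100929658, minus strand) was 0.25 ± 0.057, -0.10 ± 0.069, -0.18 ± 0.091 and -0.10 ± 0.077 in the same order and was not called. After the GC correction the values were -0.087, 0.0055, -0.087 and 0.015, so that 3 of the 4 changed sign.

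The limit on adjusted p alone is looser than both limits together, for the members as for all genes. An adjusted p under 0.1 was reached by 7, 9, 9 and 10 of the 10 in ΔPG het, ΔPG hom, ΔG het and ΔG hom, against 57.4%, 52.0%, 54.5% and 53.4% of all genes. Of these, 6, 7, 7 and 8 were lower in RA. With the GC trend removed, the ΔPG het and hom differences were -0.51 and -0.53 for E2f4, 0.73 and 0.38 for E2f5, -0.35 and -0.20 for Rbl2, -0.27 and -0.41 for Lin37, -0.66 and -0.47 for Lin52, and -0.41 and -0.18 for Rbbp4. The hom differences of Lin9 and Rbl1 were -0.28 and -0.26 after the same correction. Lin52 was thus called in ΔPG het and not in ΔPG hom, and E2f4 in both. In ΔG the GC correction ended the calls of Lin52 in het (-0.45) and of Lin9 and Rbl1 in hom cells (-0.42 and -0.39), and quantile normalization ended that of E2f4 in het cells (-0.45). ES and RA samples did not overlap in 7, 8, 8 and 8 of the 10, against 56.1%, 52.7%, 54.5% and 52.6%.

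Of 14 further subunits and regulators, 11 were called in ΔPG het (7 higher, 4 lower), 8 in ΔPG hom (5 higher, 3 lower), 7 in ΔG het (5 higher, 2 lower) and 8 in ΔG hom (6 higher, 2 lower). Among all genes tested, 31.6%, 27.8%, 29.5% and 29.2% were called in the same order. Rb1, the remaining pocket protein gene, which is no DREAM subunit, rose in all 4 genotypes. In ΔPG het it was at 3.82, 3.48 and 3.58 in ES and at 5.39, 5.53 and 5.59 in RA, and its rises were 1.88, 1.67, 1.19 and 1.18 in ΔPG het, ΔPG hom, ΔG het and ΔG hom (adjusted p = 6.65e-06, 1.29e-05, 6.86e-06 and 1.01e-06). Rbbp7, the paralog of Rbbp4, rose by 0.70 to 1.10, Tfdp2, a Dp partner of the E2F proteins, by 0.65 to 0.96, and E2f7, a repressor E2F that acts without pocket proteins, by 1.20 to 1.71. The activator genes E2f1 and E2f2 fell in 3 genotypes each, E2f1 by 0.51 to 1.13 and E2f2 by 0.51 to 1.26. Cdkn1a, which encodes the kinase inhibitor p21, fell in all 4 genotypes, by 1.02 in ΔPG het, 2.49 in ΔPG hom, 2.74 in ΔG het and 2.83 in ΔG hom. Also called were E2f6, higher in ΔPG het, ΔPG hom and ΔG hom (0.57 to 1.08), E2f8, higher in ΔPG het and ΔG hom (0.86 and 0.71), and, in 1 genotype each, Mybl1 and Trp53 in ΔPG het (0.74 and -1.01) and Tfdp1 in ΔG het (0.50). Trp53 lay under 3 in the ΔG samples, so a change there could be missed. Dyrk1a, the kinase that phosphorylates Lin52, and E2f3 were called in none.

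**Figure D3:**
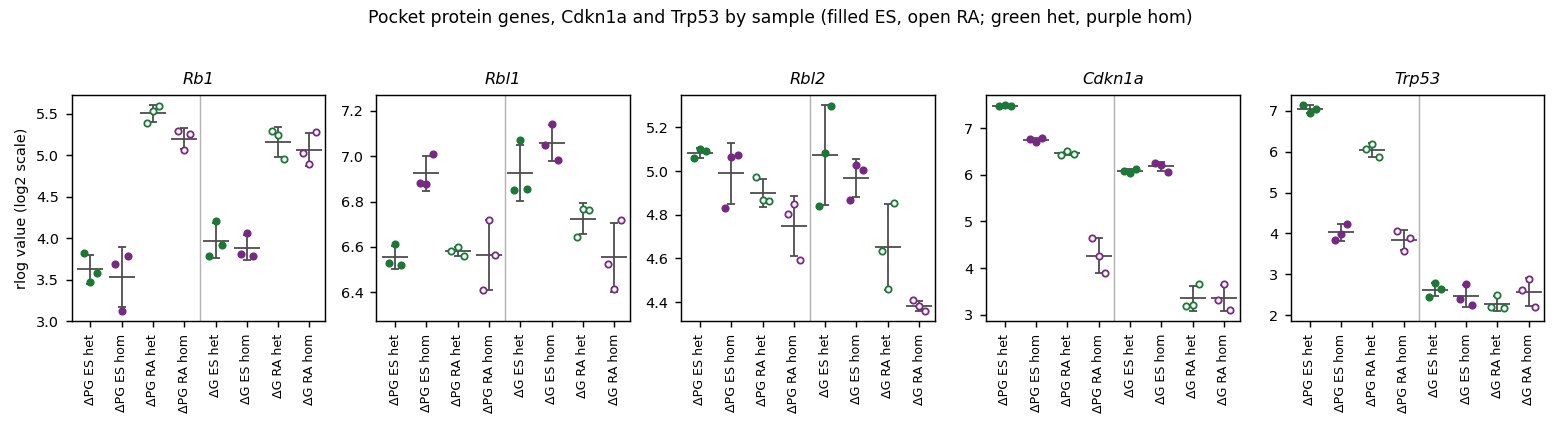
rlog value on the log2 scale (vertical axis, a separate range in each panel) of the 3 pocket protein genes, Cdkn1a and Trp53 in each of 24 samples, with 8 groups of 3 along the horizontal axis and the ΔPG and ΔG tables divided by a line; bars are the mean ± SD. Rb1 lies between 3.12 and 4.20 in ES and between 4.90 and 5.59 in RA, and Trp53 is below 4.3 in ΔPG hom and above 5.8 in ΔPG het.

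The targets of the complexes were counted in 2 lists. Of 30 G1/S genes, which E2F proteins and DREAM regulate, 17 were called in ΔPG het (1 higher, 16 lower) and 18, all lower, in each of ΔPG hom, ΔG het and ΔG hom. In the lower direction, 13.6%, 11.3%, 11.7% and 12.1% of all genes were called. The list's median differences were -0.52, -0.59, -0.54 and -0.58. Uhrf1, a maintenance factor of DNA methylation, and Mcm10, a replication initiation factor, had the largest falls in all 4 genotypes. Uhrf1 fell by 0.95 to 1.60 and Mcm10 by 1.05 to 1.40. Ccne2, a G1/S cyclin, was the only gene of the list called higher, by 0.86 ± 0.10 in ΔPG het (adjusted p = 0.000207). Ccne2 and Rrm1 were above 0 in all 4 genotypes. After quantile normalization 10 or 11 of the 30 were called in each genotype.

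Of 35 G2/M genes, which the MuvB core regulates with Mybl2 and Foxm1, 8, 4, 7 and 6 were called in ΔPG het, ΔPG hom, ΔG het and ΔG hom. They went both ways, with 3, 1, 3 and 2 higher and 5, 3, 4 and 4 lower, and the medians were -0.14, -0.18, -0.07 and -0.23. Between 11.4% and 22.9% of the list was thus called, below the background of 27.8% to 31.6%. At an adjusted p under 0.1 alone the order was the reverse. That limit was passed by 26, 32, 27 and 29 of the 35, against 57.4%, 52.0%, 54.5% and 53.4% of all genes. Of these, 19, 24, 17 and 23 were lower in RA, so many of the differences were small. Mki67, the proliferation antigen Ki-67, rose by 0.79 in ΔPG het and 0.62 in ΔG het, and Kif23, a kinesin of cell division, by 0.71, 0.59 and 0.55 in ΔPG het, ΔG het and ΔG hom. Cdc25b, a phosphatase that starts mitosis, rose by 0.75, 0.57 and 0.71 in ΔPG hom, ΔG het and ΔG hom. Ect2, which acts in cytokinesis, fell by 0.62, 0.73 and 0.67 in ΔPG hom, ΔG het and ΔG hom, Gtse1 by 0.53, 0.64 and 0.64, and Top2a by 0.55, 0.53 and 0.58, in the same order. Nek2, a centrosomal kinase, and Ccnf fell by 0.83 and 0.74 in ΔPG het.

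**Figure D4:**
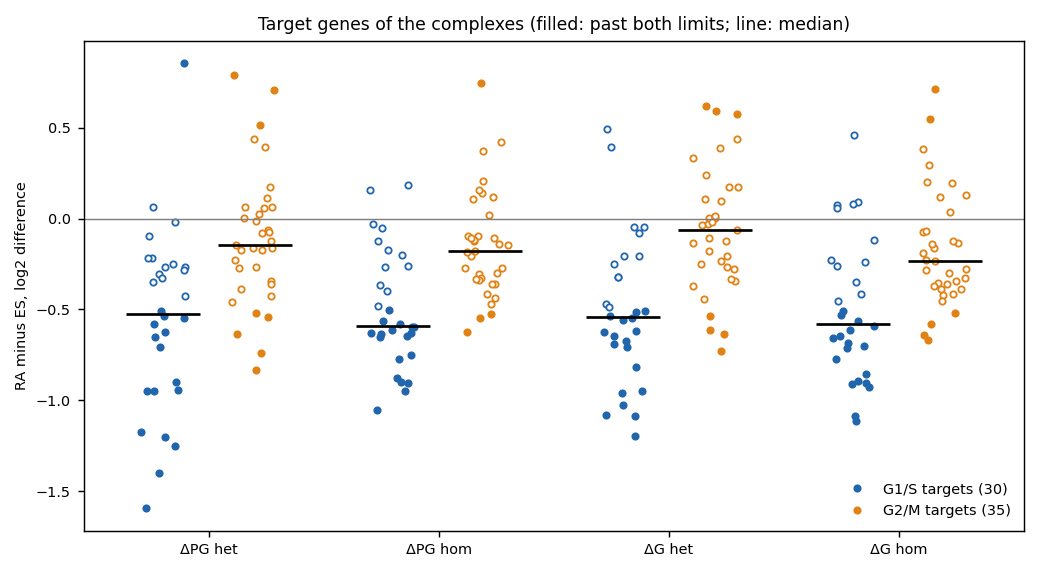
RA minus ES difference on the log2 scale (vertical axis) of 30 G1/S and 35 G2/M target genes in each genotype (horizontal axis); each point is a gene, filled where called, and the line is the list's median. The G1/S medians lie between -0.59 and -0.52 and the G2/M medians between -0.23 and -0.07.

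The second comparison asked whether loss of the second 5430416N02Rik allele changed the genes, in ES and in RA cells. In ΔG, none of the 10 was called in ES or in RA, by limma at both limits, against 0.984% and 2.14% of all genes. At an unadjusted p under 0.05, for which the share of all genes was not counted here or below, there were 1 and 3. The genotypes did not overlap in 2 and 3, against 17.8% and 21.8% of all genes, and an adjusted p under 0.1 was reached by 1 and 3, against 5.22% and 11.0%. Mybl2 in RA came closest. ΔG RA het samples were at 8.34, 8.37 and 8.51 and hom samples at 8.82, 8.70 and 8.86, all 3 above the het samples, a difference of 0.39 ± 0.064 (adjusted p = 0.000432) that was 0.38 with the GC trend removed. The summed level of the endoderm list was 9.27 to 9.36 in the same het and 8.90 to 8.99 in the same hom samples, with 1 of its 6 genes called lower. The fibroblast list was at 9.54 to 9.65 in het and at 8.65 to 8.81 in hom samples (1 of 6 called lower), and a list of 3 neural genes at 9.30 to 9.35 in het and at 9.59 to 9.64 in hom samples (1 called higher). The part of these cells in the Mybl2 difference was not tested. In ΔG ES, Mybl2 was 0.051 ± 0.030 (adjusted p = 0.53). In RA, E2f4 was 0.28 ± 0.089 and E2f5 -0.29 ± 0.099 (adjusted p = 0.0617 and 0.0796). In ES, Rbbp4 was at 10.35, 10.34 and 10.36 in het and at 10.46, 10.48 and 10.47 in hom samples, a difference of 0.12 ± 0.020 (adjusted p = 0.0281), the only member past the limit on adjusted p there.

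In ΔPG RA, none of the 10 was called (background 0.846%), and 2 had an unadjusted p under 0.05. The genotypes did not overlap in 3, against 18.8% of all genes. The differences lay between -0.15 and 0.16. In these RA samples the summed level of the endoderm list was 9.02 to 9.13 in het and 8.48 to 8.52 in hom cells. Of its 6 genes, 4 were called lower. The fibroblast list was at 9.17 to 9.22 in het and 8.99 to 9.06 in hom cells (1 of 6 called lower). The RA response list was at 10.90 to 10.92 and 10.97 to 10.99 (1 of 7 called higher). The part of these cells in the differences of the members and Lin54 was not tested. In ΔPG ES, 1 of the 10 was called, against 13.2% of all genes. Mybl2 was at 10.85, 10.85 and 10.85 in het and at 10.33, 10.40 and 10.33 in hom samples, a fall of 0.50 ± 0.025 (adjusted p = 5.11e-06) that exceeded the limit on size only in the third decimal. Without ES het replicate 2 it was -0.50, inside the limit, and without ES hom replicate 1 or 3 it was -0.49, so the call was lost in each case. With the GC trend removed it was -0.19 (adjusted p = 1.35e-07).

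Among the members past the limit on adjusted p, the sign of the ΔPG ES difference followed base composition. An adjusted p under 0.1 was reached by 7 of the 10 (4 higher, 3 lower), against 36.1% of all genes, and the genotypes did not overlap in 7, against 39.6%. The 4 that were higher in hom cells, Lin9 (0.41), E2f5 (0.41), Rbl1 (0.37) and Rbbp4 (0.17), have exons of 40.4% to 46.4% GC. The 3 that were lower, Mybl2, E2f4 (-0.37) and Foxm1 (-0.32), have exons of 54.0% to 56.1% GC. Of the others, Lin52 (43.9% GC) averaged 5.11 in het and 5.39 in hom samples. Rbl2 (45.5% GC) went against this order, at 5.08 in het and 4.99 in hom samples. Lin37 (56.6% GC) was little changed, at 5.43 and 5.31. Over all 11904 genes, the difference correlated with exonic GC content at -0.71, with a median of 0.59 in the tenth of genes with the least GC and of -0.45 in the tenth with the most. The same correlation was 0.01 in ΔG ES. With the trend removed, 5 of the 10 changed sign, to -0.14 for Lin9, 0.24 for Lin37, -0.025 for Lin52, -0.12 for Rbbp4 and -0.065 for Rbl1, and none was called. In the same samples the summed level of the stem cell list was 14.15 to 14.19 in het and 13.97 to 13.98 in hom cells. At an adjusted p under 0.1, 6 of its 10 genes were lower and 2 higher. The RA response list was at 9.67 to 9.73 in het and at 9.25 to 9.38 in hom cells (1 of 7 called lower). The neural list was at 9.28 to 9.29 and at 8.58 to 8.67 (2 of 3 called lower). The part of these lists in the members' differences was not tested. After the GC correction, E2f4 moved to -0.027 and Foxm1 to -0.065, while E2f5 was 0.26 and Rbl2 -0.30 (adjusted p = 0.0612 and 0.0572). Lin54, whose gene neighbours the deleted locus, was at 6.93, 7.13 and 6.97 in het and at 7.60, 7.67 and 7.61 in hom samples. The rise of 0.62 ± 0.061 (adjusted p = 0.000144) was called, and it was 0.17 with the trend removed, inside the limit on size. In ΔPG RA, where that correlation was -0.00108, Lin54 was 0.27 ± 0.066 higher in hom cells (adjusted p = 0.0616, not past the limit on size), and with the trend removed it was 0.26. In ΔG its differences were -0.085 ± 0.094 and -0.0068 ± 0.080. The study itself measured relative Lin54 mRNA in homozygous and control cells of both lines and found it not affected.

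**Figure D5:**
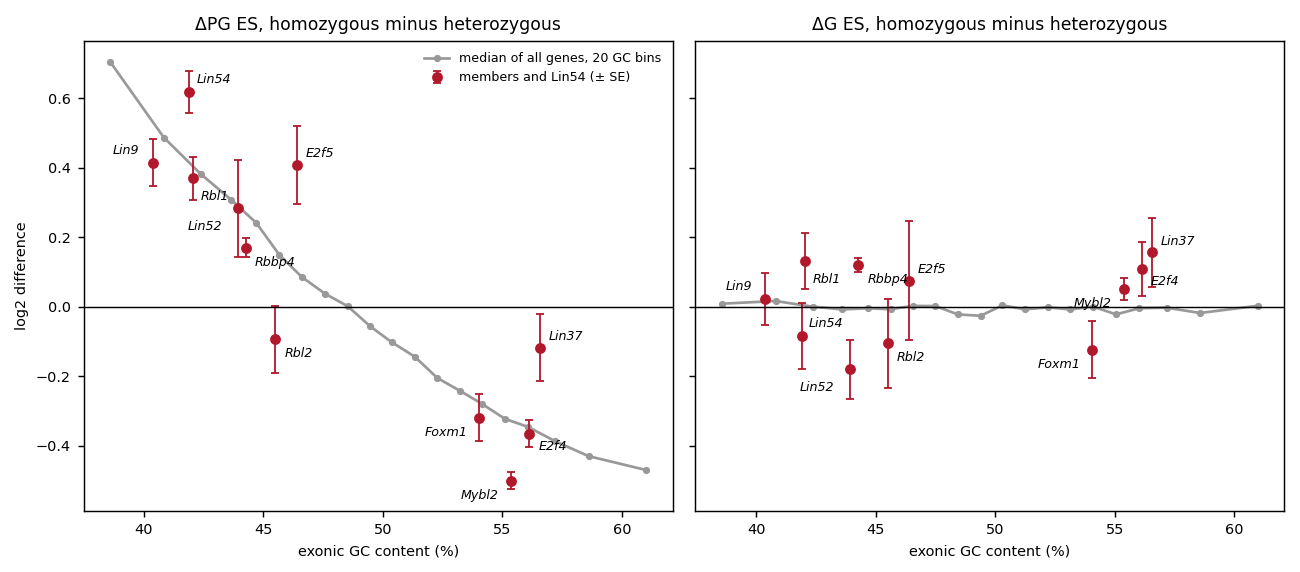
Homozygous minus heterozygous difference in ES cells on the log2 scale (vertical axis) against exonic GC content in percent (horizontal axis), for ΔPG (left) and ΔG (right); red points are the 10 genes and Lin54 ± SE, and the grey line joins the medians of all genes in 20 bins of GC content. In ΔPG the grey line falls from 0.70 to -0.47 and most members lie near it, and in ΔG it stays between -0.03 and 0.02.

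With the GC correction, calls over all genes in ΔPG ES fell from 2893 to 883, and the target lists lost theirs. The corrected count covers only genes with a mean of at least 3. In ΔPG ES, 7 of the 35 G2/M genes (5 higher, 2 lower) and 5 of the 30 G1/S genes (4 higher, 1 lower) were called, 20.0% and 16.7% against 13.2% of all genes, and none of either list with the GC trend removed. The largest changes were in Ttk (0.74), Nusap1 (0.66), Cdc20 (-0.58) and Ccnf (-0.57) among the G2/M genes, and in Ccne2 (0.91), Chek1 (0.69) and Mcm2 (-0.58) among the G1/S genes. No gene of either list was called in ΔPG RA, ΔG ES or ΔG RA, against 0.846%, 0.984% and 2.14% of all genes. An adjusted p under 0.1 was reached in these comparisons by 13 (11 higher), 5 (5 higher) and 6 (1 higher) of the G2/M genes and by 7, 8 and 10 of the G1/S genes, each of them higher in hom cells, against 4.58%, 5.22% and 11.0% of all genes. Among the further regulators, Trp53, which encodes p53 and acts on DREAM through Cdkn1a, was at 7.15, 6.95 and 7.05 in ΔPG ES het and at 3.83, 4.00 and 4.24 in ΔPG ES hom, a fall of 3.02 ± 0.12 (adjusted p = 1.85e-06), and it fell by 2.21 ± 0.15 in RA. Cdkn1a fell by 0.73 in ES and 2.20 in RA in the same hom cells. In ΔG, Trp53 was between 2.17 and 2.88 in all 12 samples, under the filter of 3. Neither gene was called between genotypes there, and at this level a difference in Trp53 could be missed. The part of Trp53 in the ΔPG differences was not tested. E2f8 (0.62), Mybl1 (0.58) and E2f2 (-0.59) were the other regulators called in ΔPG ES, and no regulator was called in ΔG. The 5 regulators called in ΔPG ES were 35.7% of the 14, against 13.2% of all genes. With the GC trend removed, 3 of the 14 were called there.

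The third comparison tested whether the genotype difference itself differed between RA and ES, as an interaction term fitted to all samples of a line. In ΔPG, 1 of the 10 was called (background 13.9%), and in ΔG none (background 2.38%), with 4 at an unadjusted p under 0.05. An adjusted p under 0.1 was reached by 6 in ΔPG and 1 in ΔG, against 29.1% and 5.28% of all genes. Mybl2 had the term 0.57 ± 0.052 in ΔPG (adjusted p = 2.24e-06) and 0.34 ± 0.072 in ΔG (adjusted p = 0.00572, not past the limit on size). The terms were 0.26 and 0.32 with the GC trend removed (adjusted p = 0.000253 and 0.000599). In each line the fall with RA was thus smaller in hom than in het cells, in ΔPG with hom cells lower in ES and in ΔG with hom cells higher in RA. Whether the lines differ was not tested. Foxm1 and E2f5 had terms of 0.48 ± 0.090 and -0.50 ± 0.17 in ΔPG (adjusted p = 0.0011 and 0.0474), just inside the limit on size. Both were called without 1 of several libraries, Foxm1 without ES het replicate 1, ES hom replicate 2, RA het replicate 2 or RA hom replicate 3 (0.50 to 0.54) and E2f5 without ES het replicate 1, ES hom replicate 3, RA het replicate 3, RA hom replicate 2 or RA hom replicate 3 (-0.59 to -0.55). Lin9 was called without ES het replicate 3 (-0.50, against -0.44 with all samples). The GC correction changed the sign of 7 of the 10 terms in ΔPG.

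Over the 12 samples of a table, the genes most like Mybl2 among those with a mean of at least 3 were Itpk1, Apoe and Mars in ΔPG (Pearson's r = 0.998 to 0.999) and Rtel1, Slc29a1 and Uhrf1 in ΔG (r = 0.997). Those most like Foxm1 were Nr2f6, Irgq and Ipo13 in ΔPG (r = 0.971 to 0.976) and Rasl11a, Bcl2l13 and Tspan3 in ΔG (r = 0.987 to 0.990). Those most like Rbl2, whose range was small, were Mrps11, Zfp369 and Crlf2 in ΔPG (r = 0.881 to 0.897) and Zfp599, Fem1a and Zmat4 in ΔG (r = 0.954 to 0.971). The 12 samples form 4 groups, so these values describe mainly the group means.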

How the data were processed

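RNA-seq was analysed in 24 samples. The authors aligned reads to NCBI37/mm9 with TopHat2 2.1.0, removed duplicates with Picard, used HTSeq 0.6.0 for strand-specific counting over GENCODE vM1 genes and DESeq2 1.14.1 for normalization. The deposited tables, 1 for each line with 12 samples, hold rlog values, which are on a log2 scale. Without counts, depth is unknown and counting error cannot be given. The RIP-seq, Capture-C and 4C-seq data were not used here.

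Genes that varied (21979 in ΔPG, 22048 in ΔG) were fitted with limma 3.58.1 in R 4.3.3 (lmFit, and eBayes with a variance trend) on the 6 samples of a comparison, or on 12 for the interaction, with Benjamini-Hochberg adjustment over all of them. A call needed an adjusted p under 0.1 as well as a log2 difference over 0.5. For the GC and the length correction, a lowess curve fitted to the deviations of a sample from the gene means was subtracted, over genes with a mean of at least 3. Exonic length and GC content came from GENCODE vM1 on NCBI37. The fits were tested on simulated data. The members and the gene lists were chosen with earlier results of these data known. The rule for named genes took the 10 members, Lin54 and 5430416N02Rik, called regulators, and from each target list the 2 largest rises and falls among called genes whose samples do not overlap. For likeness it took the 3 genes with the highest Pearson's r. Alternatives were stricter limits, no limit on the difference, no variance trend, a filter at a mean of 3, quantile normalization, both corrections, a replicate block, a fit over all 12 samples of a table, and leaving out each sample. Promoters were read from RefSeq (GRCm38.p6), and no coordinate was converted between builds.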

Additional observations from a re-analysis of the deposited data

Results flagged for a closer look

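The genotype difference of Mybl2 differed between RA and ES in ΔPG, with an interaction of 0.57 ± 0.052 on the log2 scale (limma adjusted p = 2.24e-06), and it was 0.26 with the GC trend removed. Foxm1 in ΔPG was -0.32 in hom against het cells in ES and 0.16 in RA, with no overlap of genotypes in either state and opposite directions. Genotypes did not overlap in 39.6% of all genes in ES and 18.8% in RA. The RA difference of Foxm1 did not reach an adjusted p under 0.1, and its ES difference was -0.065 with the GC trend removed. The interaction for Foxm1 was 0.48 ± 0.090 (adjusted p = 0.0011), inside the limit on size, and 0.23 with the GC trend removed (adjusted p = 0.085). Both patterns use the ΔPG ES libraries, whose GC trend differs between the genotypes, and its part in them beyond these corrected values was not tested.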

How the results depend on the processing

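The number of members called depended mostly on the limit on size. With stricter limits (adjusted p under 0.05 and fold change over 1.5) it was 0 in ΔPG ES, 0 for the ΔPG interaction, 3 in ΔG het and 2 in ΔG hom. With no limit on the difference it was 7, 7, 9 and 6 in ΔPG ES, het, hom and interaction and 1, 3, 9, 10 and 1 in ΔG ES, RA, het, hom and interaction. With the GC trend removed it was 0 in ΔPG ES, 0 for the ΔPG interaction and 3 in ΔG hom, and with the length trend removed 0 in ΔPG ES and 2 for the ΔPG interaction. After quantile normalization it was 5 in ΔPG het and 5 in ΔPG hom, each 1 higher and 4 lower, against 1 higher and 2 lower before. In ΔG, the split of 2 higher and 3 lower in het was 2 and 2 with the GC or the length trend removed, and that of 1 higher and 4 lower in hom was 1 and 2 with the GC trend removed. Leaving out 1 sample gave 0 to 2 in ΔPG ES, 3 to 5 in ΔPG het, 2 to 3 in ΔPG hom, 1 to 3 for the ΔPG interaction, 4 to 5 in ΔG het and hom, and 0 in the other comparisons. The ΔPG ES count was 2 without ES het replicate 1 and 0 without ES het replicate 2, ES hom replicate 1 or ES hom replicate 3, the ΔPG het count was 5 without ES het replicate 3, and the interaction count was 3 without ES het replicate 1 or RA hom replicate 3 and 2 without ES het replicate 3, ES hom replicate 2 or 3, RA het replicate 2 or 3, or RA hom replicate 2.

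Replicate numbers did not pair the samples. Deviations of same-numbered samples correlated at -0.03 to 0.09, and 21 of 72 samples set against another group correlated best with their own number. A replicate block left every count of members as it was (1 in ΔPG ES and for the interaction, 3 in ΔPG het and hom, 5 in ΔG het and hom), and moved that of all genes from 217 to 44 in ΔG ES and from 186 to 112 in ΔPG RA.

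Other reversals concerned values that were not called. With the GC trend removed, the ΔPG interaction was 0.095 for Lin9, -0.14 for Lin37, 0.19 for Lin52, 0.23 for Rbbp4, -0.020 for E2f4, 0.042 for Rbl1, 0.15 for Rbl2 and 0.093 for Lin54. The same correction gave -0.14 for Lin9, 0.24 for Lin37, -0.025 for Lin52, -0.12 for Rbbp4 and -0.065 for Rbl1 in ΔPG ES, -0.37 for Lin9, -0.30 for Rbl1 and -0.087 for Lin54 in ΔPG het, and 0.0055, 0.0092 and 0.015 for Lin54 in ΔPG hom, ΔG RA and ΔG hom. Quantile normalization gave -0.057 for Lin9, 0.099 for Rbbp4 and -0.0064 for Rbl1 in ΔPG het, and 0.034 and 0.024 for Rbbp4 in ΔPG hom and ΔG het. Removal of the length trend gave -0.13 for Rbl1 in ΔPG het, 0.017 for Rbbp4 in the ΔPG interaction and 0.023 for Lin37 in ΔG het. Leaving out 1 sample changed the sign of 14 of 792 values, with ranges of -0.17 to 0.045 for E2f5 in ΔPG RA, -0.093 to 0.062 for Rbl1 in ΔPG RA, -0.0088 to 0.084 for Lin9 in ΔPG het, -0.21 to 0.0043 for Lin52 in the ΔPG interaction, -0.14 to 0.019 for Rbl2 in the ΔPG interaction, -0.026 to 0.079 for Lin9 in ΔG ES, -0.085 to 0.22 for E2f5 in ΔG ES, -0.22 to 0.0065 for Rbl2 in ΔG ES, -0.22 to 0.0031 for Lin37 in ΔG RA and -0.060 to 0.046 for Lin54 in ΔG RA. The cause of these changes was not tested.

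Counts over all genes went with the limits in the same way. With no limit on the difference they were 7926, 1006, 12607, 11424 and 6387 in ΔPG (ES, RA, het, hom, interaction), from 2893, 186, 6947, 6116 and 3056, and 1152, 2433, 12012, 11772 and 1164 in ΔG, from 217, 471, 6499, 6434 and 524. With stricter limits ΔG gave 117 in ES, 275 in RA and 268 for the interaction, and with the GC trend removed ΔPG gave 883 in ES and 1117 for the interaction. For the G1/S and G2/M targets, no limit gave 21 and 29 in ΔPG ES, 27 and 26 in ΔPG het, 20 and 30 for the ΔPG interaction (from 4 and 6; 0 and 1 with the GC trend removed), 27 and 27 in ΔG het, 32 G2/M in ΔPG hom and 29 in ΔG hom. Stricter limits gave 2 and 4 in ΔPG ES, and 5, 2 and 3 G2/M in ΔPG het, ΔPG hom and ΔG hom. Without ES het replicate 1, 3 G1/S genes were called in ΔPG ES. Without counts, the effect of depth on these calls is unknown.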

Other observations

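Differences between 2 genes within a sample, chosen after their values were seen, describe how the partners stood to each other. On the rlog scale, which is not per length, Mybl2 exceeded Foxm1 by 3.39 to 3.95 in the ES samples and by 0.82 to 1.48 in the RA samples of both lines, and E2f4 exceeded E2f5 by 1.96 to 3.31 in ES and by 0.89 to 1.95 in RA. The gap between Rb1 and Rbl1 was -3.75 to -2.71 in ES and -1.81 to -0.97 in RA. The gap between Rbl1 and Rbl2 stayed between 1.43 and 2.36 in all samples.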
